A study of Mus musculus with 10 samples.

Results

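The genes described here are 10 members of the NRF2 antioxidant pathway, taken by symbol from a table of 54343 genes, and all 10 were found. They are the transcription factor gene Nfe2l2, its inhibitor gene Keap1, and the target enzyme genes Hmox1, Nqo1, Gclc, Gclm, Txnrd1, Srxn1, Gsr and Prdx1. Their levels were compared between MC38.T4 cells (5 libraries) and parental MC38 cells (5 libraries), mouse tumour lines grown in the same serum-containing medium and profiled as strand-specific polyA RNA-seq. MC38.T4 carries a history that its parent lacks. MC38 cells were transfected with a human mesothelin vector, cloned, grown as a tumour in mice and returned to culture, and MC38.T4 was then founded from 1 low-mesothelin cell. The line is therefore a single clone, and transfection, cloning, growth in mice and passage cannot be told apart in the comparison. The cells are melanoma by their tissue label and colon carcinoma by the library names and the protocol text. All 8 intestinal epithelial markers lay below the expression filter, as did 5 of 6 melanocyte markers.

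NRF2, the protein of Nfe2l2, is held in the cytoplasm by KEAP1, which presents it to a ubiquitin ligase built on CUL3 and RBX1. Oxidants and electrophiles modify KEAP1, NRF2 then accumulates, pairs with a small MAF protein and binds antioxidant response elements (ARE) near genes for glutathione synthesis, the thioredoxin system, quinone reduction and heme breakdown. BACH1 competes for the same elements, and much of the control acts on NRF2 protein, which RNA levels do not show.

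Promoter windows were read from 250 bases before to 50 bases after the annotated start (RefSeq, GRCm38.p6, a build other than the GRCm39 named in the submitters' processing notes). Windows were found for 7 of the 10 members, and Hmox1, Gsr and Gclc had none in the table used. The ARE core was searched as TGACNNNGC and the AP-1 element (TRE) as TGACTCA, both on either strand. TGAGTCAGC, which joins a TRE to the end of an ARE and overlaps the TRE, was added after the Srxn1 window had been read. A run of TGACTCAGC counts for both the ARE and the TRE. Capitals mark the matches. Nqo1 is shown as the gene with the largest difference, Txnrd1 as a target that fell, Gclm as a target that rose, and Srxn1 and Prdx1 as an enzyme and its substrate.
Nqo1, chr8:107403156-107403455, minus strand: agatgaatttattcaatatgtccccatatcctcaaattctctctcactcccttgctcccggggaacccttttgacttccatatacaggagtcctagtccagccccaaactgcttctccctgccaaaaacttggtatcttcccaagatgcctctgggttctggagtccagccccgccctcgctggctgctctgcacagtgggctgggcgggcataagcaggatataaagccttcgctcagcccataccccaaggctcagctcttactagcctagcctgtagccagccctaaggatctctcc
Txnrd1, chr10:82858956-82859255, plus strand: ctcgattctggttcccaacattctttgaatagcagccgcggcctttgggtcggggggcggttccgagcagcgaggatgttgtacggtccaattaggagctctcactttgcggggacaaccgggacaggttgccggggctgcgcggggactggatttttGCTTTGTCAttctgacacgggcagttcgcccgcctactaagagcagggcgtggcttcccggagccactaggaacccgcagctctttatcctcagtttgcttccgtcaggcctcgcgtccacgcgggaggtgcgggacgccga
Gclm, chr3:122245307-122245606, plus strand: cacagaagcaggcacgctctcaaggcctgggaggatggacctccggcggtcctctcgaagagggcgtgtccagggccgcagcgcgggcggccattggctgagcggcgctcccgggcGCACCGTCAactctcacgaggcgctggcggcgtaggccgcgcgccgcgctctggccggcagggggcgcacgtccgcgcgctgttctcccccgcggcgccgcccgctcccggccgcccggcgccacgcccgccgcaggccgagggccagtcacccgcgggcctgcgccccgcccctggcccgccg
Srxn1, chr2:152105274-152105573, plus strand: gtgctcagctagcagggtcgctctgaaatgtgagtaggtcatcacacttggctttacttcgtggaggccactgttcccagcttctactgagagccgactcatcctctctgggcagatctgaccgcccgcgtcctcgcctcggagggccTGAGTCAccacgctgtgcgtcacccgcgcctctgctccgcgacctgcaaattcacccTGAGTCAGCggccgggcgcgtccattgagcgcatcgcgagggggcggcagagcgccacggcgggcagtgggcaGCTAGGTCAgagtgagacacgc
Prdx1, chr4:116685349-116685648, plus strand: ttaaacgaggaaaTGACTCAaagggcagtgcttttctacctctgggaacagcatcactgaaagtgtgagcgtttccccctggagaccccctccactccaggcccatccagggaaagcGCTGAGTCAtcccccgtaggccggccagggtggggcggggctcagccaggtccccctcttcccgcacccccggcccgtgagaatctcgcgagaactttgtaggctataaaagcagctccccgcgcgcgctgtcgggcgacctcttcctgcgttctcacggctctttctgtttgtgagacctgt
The ARE core was present in at least 1 window of 5 of 7 members (Nfe2l2, Gclm, Txnrd1, Srxn1 and Prdx1), and 14.0% of all 27025 genes with a window held it. The last 40 bases of the Nfe2l2 window, alone among the 9 member windows, occurred in no GENCODE transcript of its gene, so that start is less certain. In Txnrd1 the ARE core lay in 1 of 3 annotated start windows, the one shown. The windows of Nqo1 and Keap1 held none of the 3 motifs. The TRE occurred in Srxn1 and Prdx1, and in 5.95% of all genes. In Prdx1 a TRE overlapped the ARE core, at bases 118 to 126 counted from the 5′ end of the window. TGAGTCAGC occurred in Srxn1 alone among the 7 members, at bases 206 to 214, and in 0.481% of all genes. It was chosen from the Srxn1 window, so its presence there was fixed in advance. These matches describe letters in short windows, and distal elements were not searched.

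The table gave FPKM, fragments scaled by gene length and library total, with sums of 442183 to 484460 per library. Read totals were not given. The spacing of low values put depth between 0.874 and 1.14 times that of MC38 replicate 1, and MC38.T4 replicate 4 was the shallowest. Two-sided limma tests ran on log2(FPKM + 1) over the 11110 genes that reached an FPKM of 1 in 5 or more libraries. Of these, 86.0% were called at an adjusted p under 0.05, with 43.1% higher and 42.9% lower in MC38.T4, so a call of a single gene is the usual outcome here. No label ties a library to its own culture. The p-values therefore reflect the spread among these libraries, part or all of which may be technical. An earlier look at these data found MC38 replicate 1 and MC38.T4 replicate 4 to stand apart, and every call of a member below was the same without both.

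The pathway did not move as a block. All 10 members passed the filter, each with an FPKM above 1 in every library. In MC38.T4, 5 were called higher (Nqo1, Gsr, Keap1, Gclm and Prdx1), 4 were called lower (Hmox1, Txnrd1, Gclc and Nfe2l2), and Srxn1 was not called. These 9 calls among 10 genes lie near the background of 86.0%. The lines did not overlap for 8 members, and for 77.4% of all tested genes. A called difference of at least 1 on the log2 scale was found for 4 of 10 members and for 17.2% of all tested genes. Of these, Nqo1 and Gsr were higher, as were 10.0% of all tested genes, and Hmox1 and Txnrd1 were lower, as were 7.14%. The median log2 difference of the members was 0.14, against 0.00077 over all tested genes, and the median size was 0.58 against 0.47. Their FPKM summed to 869.5 to 924 in MC38.T4 libraries and to 900.0 to 976 in MC38 libraries, ranges that overlap. The largest parts of this sum went opposite ways, so it says little of the other members. They were Prdx1 (mean 507 FPKM in MC38.T4 and 439 in MC38) and Txnrd1 (93.4 in MC38.T4 and 202 in MC38). In bulk RNA, fewer cells that express a gene and less RNA per cell cannot be told apart.

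**Figure D1:**
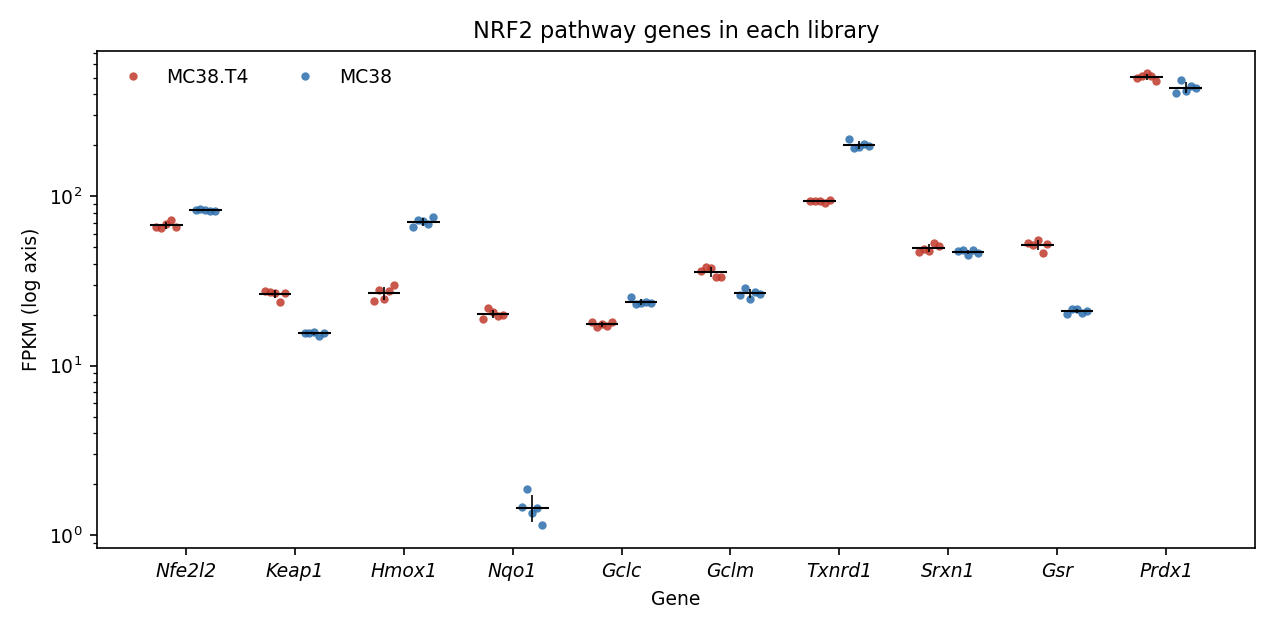
FPKM of the 10 genes in each of 5 MC38.T4 libraries (red) and 5 MC38 libraries (blue) on a log axis; horizontal bars are means and vertical bars SD. Nqo1 shows the widest gap, at 18.8 to 21.8 FPKM in MC38.T4 and 1.14 to 1.87 in MC38, while Srxn1 and Prdx1 overlap between the lines.

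The transcription factor gene and its inhibitor gene differed in opposite directions. Nfe2l2 stood at 65.6, 65.1, 68.6, 72.8 and 66.1 FPKM in MC38.T4 replicates 1 to 5 and at 82.7, 84.2, 83.3, 82.1 and 81.8 FPKM in MC38 replicates 1 to 5. Every MC38.T4 library lay below every MC38 library, and the log2 difference was -0.29 (SE 0.03, limma adjusted p = 1.27e-06). Keap1 stood at 27.5, 27.2, 26.9, 23.9 and 26.9 FPKM in MC38.T4 and at 15.5, 15.7, 15.8, 14.9 and 15.7 FPKM in MC38. All MC38.T4 values exceeded all MC38 values, a 1.70-fold difference in means (log2 difference 0.73, SE 0.04, limma adjusted p = 1.34e-10). The fall of Nfe2l2 was small beside the rest of the table, since 67.5% of tested genes differed by more, against 29.9% for Keap1. The FPKM of Keap1 divided by that of Nfe2l2 was 0.393 ± 0.038 in MC38.T4 and 0.187 ± 0.0038 in MC38 (SD, n = 5 each). This ratio does not depend on how a library is scaled and differed by 1.06 on the log2 scale. Its exact permutation p was 0.00794, the smallest that 252 assignments allow (two-sided, and 0.0119 adjusted over 3 ratios). Since the genes differed in opposite directions with no overlap, that p was fixed in advance and is no further support. The lowest MC38.T4 ratio, 0.328, came from replicate 4, which held the most Nfe2l2 and the least Keap1 of its line.

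Nqo1 and Hmox1, which are both textbook NRF2 targets, had the largest differences among the 10, and in opposite directions. Nqo1 encodes a quinone reductase that spends NADPH to reduce quinones by a pair of electrons at once. It stood at 18.8, 21.8, 20.7, 19.6 and 20.0 FPKM in MC38.T4, against 1.45, 1.87, 1.35, 1.45 and 1.14 FPKM in MC38. The mean was 13.9-fold higher in MC38.T4 (log2 difference 3.12, SE 0.07, limma adjusted p = 4.43e-15), and 33 of 11110 tested genes rose further. In MC38 only 6.96% of tested genes had a lower mean level than Nqo1, whereas in MC38.T4 62.9% did. Hmox1 encodes heme oxygenase 1, which opens heme to release iron, carbon monoxide and biliverdin. It stood at 24.2, 28.1, 24.7, 27.8 and 29.8 FPKM in MC38.T4, against 66.2, 72.0, 71.6, 68.3 and 75.7 FPKM in MC38. No library overlapped, the mean was 2.63-fold higher in MC38, and the log2 difference was -1.37 (SE 0.06, limma adjusted p = 5.12e-12).

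**Figure D2:**
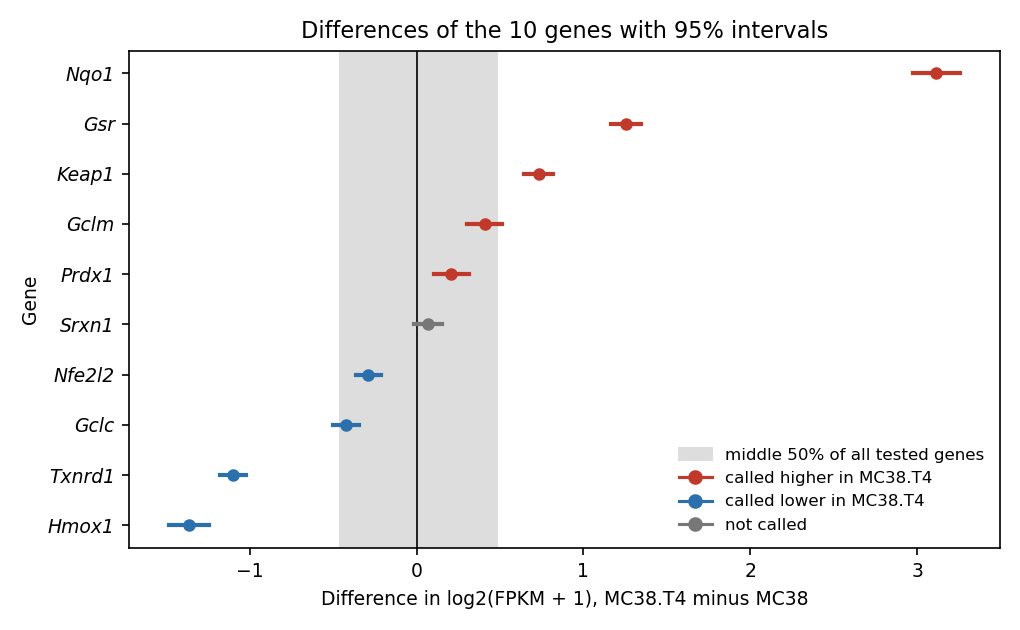
Difference in log2(FPKM + 1), MC38.T4 minus MC38, for each gene, with its 95% interval from limma; the grey band is the middle 50% of all 11110 tested genes. Nqo1, Gsr and Keap1 lie to the right of the band, Hmox1 and Txnrd1 to the left, and the interval of Srxn1 crosses 0.

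In the glutathione branch the subunits of glutamate-cysteine ligase, the first enzyme of glutathione synthesis, diverged. Gclc, the catalytic subunit, stood at 18.0, 16.9, 17.6, 17.0 and 18.0 FPKM in MC38.T4, against 25.4, 23.0, 23.6, 23.7 and 23.5 FPKM in MC38. It fell in MC38.T4 with no overlap (log2 difference -0.42, SE 0.04, limma adjusted p = 2.29e-08). Gclm, the modifier subunit that raises the affinity of the enzyme for glutamate and relieves feedback by glutathione, stood at 36.3, 38.2, 37.7, 33.4 and 33.2 FPKM in MC38.T4, against 26.2, 28.9, 24.8, 27.2 and 26.5 FPKM in MC38. It rose with no overlap (log2 difference 0.41, SE 0.05, limma adjusted p = 1.28e-06). FPKM of Gclm over Gclc was 2.05 ± 0.16 in MC38.T4 and 1.12 ± 0.090 in MC38 (SD, n = 5 each), and the lowest MC38.T4 ratio, 1.84, lay above the highest MC38 ratio, 1.26. The log2 difference of this ratio was 0.87 (exact permutation p = 0.00794, two-sided, and 0.0119 adjusted over 3 ratios). As Gclm rose and Gclc fell with no overlap, that p was fixed in advance and is no further support. Gsr, glutathione reductase, returns oxidised glutathione to its reduced form with NADPH. It stood at 52.9, 51.3, 55.3, 46.4 and 52.0 FPKM in MC38.T4, against 20.2, 21.4, 21.7, 20.5 and 21.1 FPKM in MC38. That is a 2.46-fold rise (log2 difference 1.26, SE 0.04, limma adjusted p = 5.61e-13) and the lines did not overlap.

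The thioredoxin branch held 1 large fall and 2 genes with little difference. Txnrd1, the cytosolic thioredoxin reductase, keeps thioredoxin reduced at the cost of NADPH. It stood at 93.2, 94.2, 93.6, 91.3 and 94.8 FPKM in MC38.T4, against 219, 192, 195, 203 and 199 FPKM in MC38. The MC38.T4 libraries were close together, with an SD of 1.44% of their mean, and the log2 difference was -1.10 (SE 0.04, limma adjusted p = 3.62e-13). Prdx1, an abundant peroxiredoxin that reduces hydrogen peroxide, stood at 501, 511, 532, 511 and 478 FPKM in MC38.T4, against 407, 488, 418, 447 and 433 FPKM in MC38. MC38 replicate 2 overlapped the MC38.T4 range. Prdx1 was called higher (log2 difference 0.21, SE 0.05, limma adjusted p = 0.000926), but with quantile normalization the difference was 0.08 and the call was lost (adjusted p = 0.0733). It was the most abundant of the 10, with a mean above that of 98.7% of tested genes in either line. Srxn1, sulfiredoxin, repairs peroxiredoxins whose active cysteine has been over-oxidised. It stood at 46.7, 48.7, 47.4, 53.3 and 50.6 FPKM in MC38.T4, against 47.2, 48.2, 44.7, 48.0 and 46.5 FPKM in MC38. The lines overlapped, and the log2 difference of 0.07 (95% interval -0.01 to 0.15) did not pass (limma adjusted p = 0.108). The FPKM of Srxn1 over Prdx1 was 0.0975 ± 0.0072 in MC38.T4 and 0.107 ± 0.0061 in MC38 (SD, n = 5 each; log2 difference -0.14, exact permutation p = 0.0476, two-sided, and 0.0476 adjusted over 3 ratios). The ranges overlapped, and the call was lost on leaving out any of MC38.T4 replicates 1, 2 and 3 or MC38 replicates 1, 3, 4 and 5 (adjusted p up to 0.127).

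**Figure D3:**
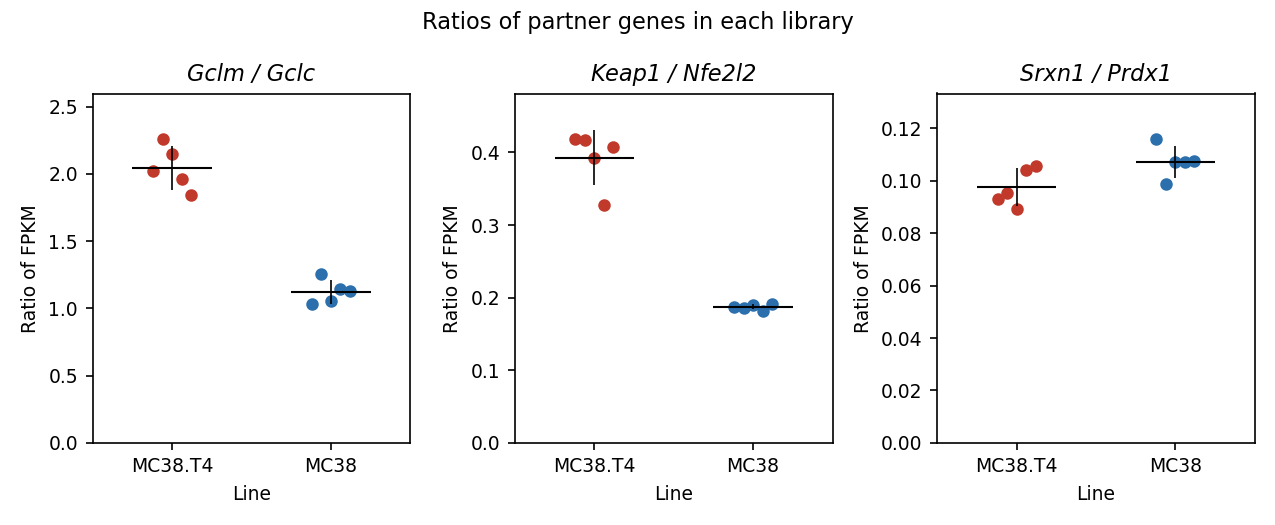
Ratio of FPKM within each library for Gclm over Gclc, Keap1 over Nfe2l2 and Srxn1 over Prdx1, with MC38.T4 (red) left of MC38 (blue); horizontal bars are means and vertical bars SD. The first ratio is 1.84 to 2.26 in MC38.T4 and 1.03 to 1.26 in MC38, and only the third overlaps between the lines.

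Within a line the members varied little, and several of the extremes came from MC38.T4 replicate 4. SDs were 1.44% to 8.87% of the mean in MC38.T4 and 1.19% to 7.21% in MC38, apart from Nqo1 in MC38 at 18.3%. MC38.T4 replicate 4 had the highest Nfe2l2 (0.11 above its line mean in log2 units) and Srxn1 (0.11 above) and the lowest Keap1 (0.14 below) and Gsr (0.15 below) of its line. In MC38, replicate 2 had the highest Nqo1, Gclm, Prdx1, Nfe2l2 and Srxn1 and the lowest Gclc and Txnrd1 of its line. Over the deviations of the 10 libraries from their line means, the tested genes most like Nfe2l2 were Rars (r = 0.95), Kdelr3 (r = 0.95) and Vcam1 (r = 0.93), and those most like Nqo1 were Rab7b (r = 0.97), Pwp1 (r = 0.94) and Pdss1 (r = 0.94). These r values are the highest among the tested genes, leaving out symbols that start with Gm and a digit or end in Rik. They come from 10 libraries that differ in depth and are given as a description.

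**Figure D4:**
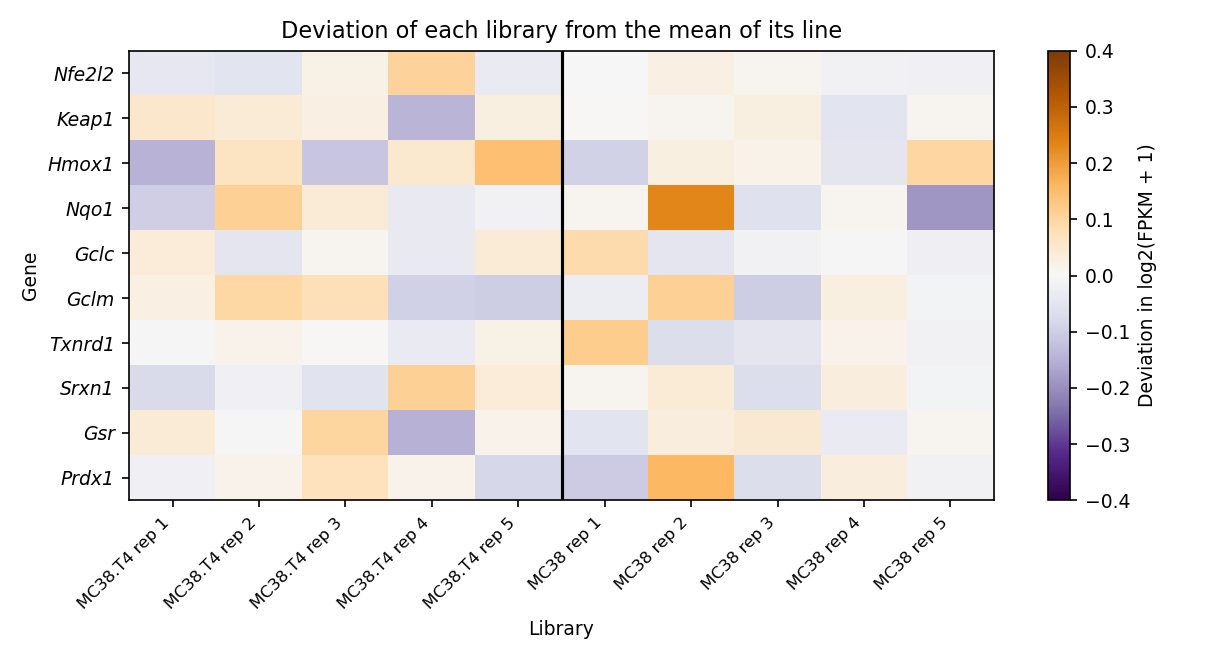
Deviation of each library (columns, MC38.T4 left of MC38) from the mean of its line for each of the 10 genes (rows), in log2(FPKM + 1). MC38.T4 replicate 4 is high for Nfe2l2 and Srxn1 and low for Keap1 and Gsr, and MC38 replicate 2 is high for Nqo1 and Prdx1.

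Among the regulators and partners of NRF2, Sqstm1 and Mafk fell most. Of 14 genes 12 were tested, of which 4 rose and 7 fell, with a median log2 difference of -0.39. As in every list below, the count stands beside 43.1% of all tested genes called higher, 42.9% called lower and 86.0% called in all, and 11 calls among 12 genes lie near that share. Sqstm1 encodes p62, an autophagy receptor that binds KEAP1 and is itself an NRF2 target. It stood at 264 to 315 FPKM in MC38.T4, against 1222 to 1348 FPKM in MC38 (log2 difference -2.19, SE 0.05, limma adjusted p = 4.81e-15). The small MAF gene Mafk stood at 10.4 ± 0.23 FPKM in MC38.T4 and 40.8 ± 1.3 FPKM in MC38 (SD, n = 5 each; limma adjusted p = 6.26e-16). The remaining small MAF genes of the list, named after their values were seen, also fell, Maff to 13.0 FPKM in MC38.T4 against 34.2 in MC38, and Mafg to 25.5 FPKM in MC38.T4 against 38.3 in MC38. Rbx1, the RING subunit of the ligase that KEAP1 recruits, rose to 100.7 ± 5.2 FPKM in MC38.T4, against 48.5 ± 4.7 FPKM in MC38 (SD, n = 5 each). Btrc, the substrate receptor of a KEAP1-independent ligase for NRF2, rose 1.29-fold. The scaffold gene Cul3, named after its values were seen, stood at 99.9 ± 3.8 FPKM in MC38.T4 and 102.6 ± 5.0 FPKM in MC38 and was not called (limma adjusted p = 0.388). Bach1, the repressor gene, was also named after its values were seen, and rose to 14.8 ± 0.47 FPKM in MC38.T4 against 13.1 ± 0.79 FPKM in MC38 (limma adjusted p = 0.00152).

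**Figure D5:**
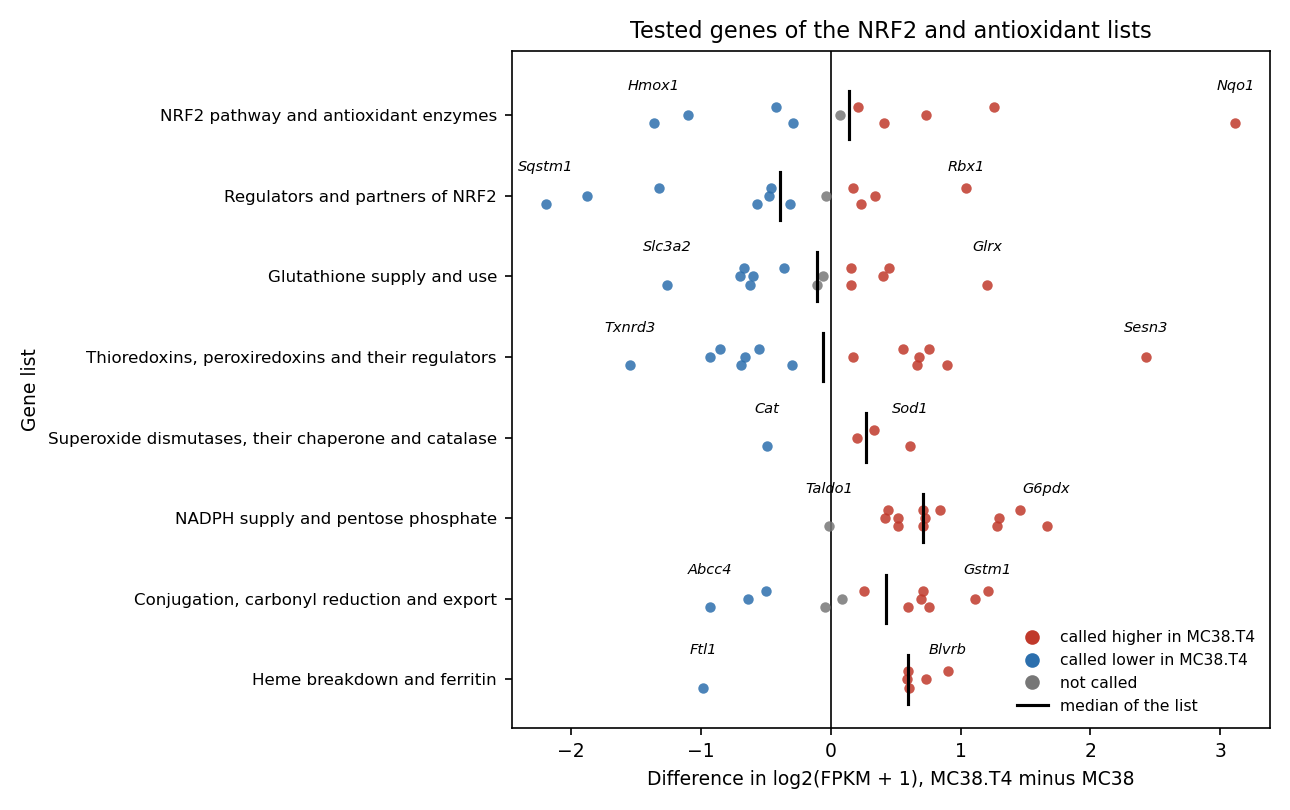
Difference in log2(FPKM + 1), MC38.T4 minus MC38, of every tested gene of the 10 members and of 7 related lists; red points were called higher, blue points lower, grey points were not called, and black bars are list medians. All but 1 of the 13 genes for NADPH supply and the pentose phosphate pathway lie to the right of 0, while Sqstm1 at -2.19 is the lowest point of the regulators.

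NADPH is the electron donor on which Nqo1, Gsr and Txnrd1 all draw. A list for NADPH supply and the pentose phosphate pathway held enzymes that make NADPH and others that do not, or not mainly. Among the latter are the pentose phosphate enzymes Pgls, Tkt and Taldo1, the enzymes Me2 and Mthfd2, and Nadk, which makes NADP. All 13 genes of the list were tested, 12 rose and none fell (0 at an unadjusted limma p under 0.05, and 0 by the exact rank-sum test), where 43.1% of all tested genes rose. Their median log2 difference was 0.71, and 4 rose by at least 1, as did 10.0% of all tested genes. G6pdx, the entry enzyme of the pentose phosphate pathway, stood at 55.3 to 58.1 FPKM in MC38.T4, against 16.0 to 18.2 FPKM in MC38 (3.29-fold; limma adjusted p = 4.81e-15). Idh2, the mitochondrial NADP-dependent isocitrate dehydrogenase, stood at 59.4 ± 3.0 FPKM in MC38.T4 and 21.0 ± 1.3 FPKM in MC38 (SD, n = 5 each). Of the same pathway as G6pdx and named after their values were seen, Pgls rose 2.53-fold and Pgd 1.44-fold. The 1 gene not called was the transaldolase gene Taldo1, at 96.8 FPKM in MC38.T4 and 97.9 FPKM in MC38 (limma adjusted p = 0.767).

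Glutathione supply and thioredoxin genes went both ways. Of 17 genes for glutathione supply and use 13 were tested, 5 rose and 6 fell (median log2 difference -0.11). The glutaredoxin gene Glrx rose 2.48-fold, to 17.6 ± 0.79 FPKM in MC38.T4 against 7.10 ± 0.45 FPKM in MC38. Chac2, which degrades glutathione, stood at 8.75 FPKM in MC38.T4 and 6.12 FPKM in MC38. Slc3a2, the heavy chain shared by several amino acid transporters, fell to 173 ± 16 FPKM in MC38.T4 against 415 ± 15 FPKM in MC38 (limma adjusted p = 6.96e-12). Slc7a11, which pairs with it to import cystine and was named after its values were seen, stood at 5.60 ± 0.73 FPKM in MC38.T4 and 9.49 ± 1.0 FPKM in MC38 (limma adjusted p = 9.21e-07). Glrx5, a mitochondrial glutaredoxin gene, fell to 11.8 FPKM in MC38.T4 against 19.9 FPKM in MC38. The remaining glutaredoxin genes of the list, named after their values were seen, went both ways. Glrx2 rose to 11.9 FPKM in MC38.T4 against 10.5 FPKM in MC38, and Glrx3 fell to 69.5 FPKM in MC38.T4 against 108 FPKM in MC38.

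All 14 thioredoxin, peroxiredoxin and sestrin genes were tested, and 7 rose and 7 fell (median log2 difference -0.06). The sestrin genes split, Sesn3 rising 7.66-fold to 14.6 ± 0.99 FPKM in MC38.T4 against 1.90 ± 0.37 FPKM in MC38, and Sesn2 standing at 20.5 ± 2.1 FPKM in MC38.T4 against 39.9 ± 1.3 FPKM in MC38. The reductases beside Txnrd1 also differed. Txnrd2, the mitochondrial form, stood at 12.2 ± 0.49 FPKM in MC38.T4 and 6.11 ± 0.57 FPKM in MC38, while Txnrd3 stood at 2.89 ± 0.10 FPKM in MC38.T4 and 10.4 ± 0.18 FPKM in MC38. Txn1, the cytosolic thioredoxin that Txnrd1 reduces, was named after its values were seen and rose to 433 ± 33 FPKM in MC38.T4 against 256 ± 20 FPKM in MC38 (log2 difference 0.76, limma adjusted p = 1.41e-08).

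Of 5 superoxide dismutase and catalase genes 4 were tested, and 3 rose and 1 fell (median log2 difference 0.27). Sod1, the cytosolic superoxide dismutase, stood at 456 ± 9.2 FPKM in MC38.T4 and 299 ± 23 FPKM in MC38, and its copper chaperone gene Ccs at 26.96 ± 2.5 FPKM in MC38.T4 and 21.2 ± 1.1 FPKM in MC38. Cat, catalase, fell to 20.5 ± 0.49 FPKM in MC38.T4 against 29.2 ± 0.53 FPKM in MC38 (limma adjusted p = 6.02e-10). Of 6 heme and ferritin genes 5 rose and 1 fell (median log2 difference 0.60), beside 43.1% higher and 42.9% lower over all tested genes. Blvrb, a biliverdin reductase downstream of heme oxygenase, rose 1.91-fold to 42.6 FPKM in MC38.T4. Fech, which inserts the iron in heme synthesis, rose 1.71-fold to 26.8 FPKM in MC38.T4. The ferritin light chain gene Ftl1 fell to 1043 ± 27 FPKM in MC38.T4 against 2065 ± 113 FPKM in MC38 (limma adjusted p = 9.01e-12). The heavy chain gene Fth1, named after its values were seen, rose to 2244 ± 58 FPKM in MC38.T4 against 1481 ± 75 FPKM in MC38.

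Of 21 genes for conjugation, carbonyl reduction and export 12 were tested, and 7 rose and 3 fell (median log2 difference 0.43), beside 43.1% higher and 42.9% lower over all tested genes. The glutathione transferase gene Gstm1 rose 2.41-fold to 30.4 ± 1.6 FPKM in MC38.T4, and Ptgr1, a reductase of lipid-derived aldehydes and ketones, rose 2.42-fold to 11.0 ± 0.51 FPKM. Abcc4, an exporter of organic anions, fell to 7.33 ± 0.35 FPKM in MC38.T4 against 14.9 ± 1.2 FPKM in MC38, and the transferase gene Gstp1 fell to 532 ± 14 FPKM in MC38.T4 against 829 ± 39 FPKM in MC38. Handling of reads shared by close relatives or pseudogenes is not given in the sources used here, so values of Gstm1, Gstp1, Fth1, Ftl1, Txn1, Prdx1 and Sod1 are uncertain to that extent.

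Markers of other cell types were low apart from some of the fibroblast and pericyte genes. Macrophages are a cell type known for high Hmox1. Of 7 macrophage markers 2 were tested, and the list summed to 4.96 to 6.90 FPKM in MC38.T4 libraries and 6.71 to 8.40 FPKM in MC38 libraries. Adgre1 was listed at 0 in all 10 libraries, and Ptprc averaged 0.0023 FPKM in MC38.T4 and 0.0267 FPKM in MC38. Cd68 was called lower, the direction of Hmox1, at 2.21 ± 0.54 FPKM in MC38.T4 and 3.10 ± 0.32 FPKM in MC38 (SD, n = 5 each; limma adjusted p = 0.003). Cd14 stood at 3.19 ± 0.32 FPKM in MC38.T4 and 3.44 ± 0.33 FPKM in MC38 and was not called (limma adjusted p = 0.232), and Lyz2, below the filter, averaged 0.237 FPKM in MC38.T4 and 0.805 FPKM in MC38. These macrophage markers were named after their values were seen, and their part in the difference of Hmox1 was not tested. None of 6 lymphocyte, 4 endothelial and 4 erythroid markers passed the filter, and Cd3e, Cd3g, Cd8a, Hbb-bs and Alas2 were listed at 0 in every library. Of 8 fibroblast and pericyte markers 6 passed the filter and were called higher, where 43.1% of all tested genes were. Pdgfrb, Acta2 and Col1a2 passed it only through their MC38.T4 libraries and so could only be called higher, and the count is no support for a direction. The list summed to 110.1 to 119 FPKM in MC38.T4 libraries and 33.9 to 36.8 FPKM in MC38 libraries. Pdgfrb stood at 19.2 ± 0.89 FPKM in MC38.T4 and 0.191 ± 0.035 FPKM in MC38, and Dcn at 58.1 FPKM in MC38.T4 and 16.8 FPKM in MC38. Pdgfra stood at 24.5 FPKM in MC38.T4 and 12.4 FPKM in MC38. Col1a1 and Lum, named after their values were seen, lay below the filter. Col1a1 averaged 0.175 FPKM in MC38.T4 and 0.0533 FPKM in MC38, and Lum 0.0733 FPKM in MC38.T4 and 0.0258 FPKM in MC38. Cspg4 stood at 6.61 FPKM in MC38.T4 and 5.58 FPKM in MC38 (limma adjusted p = 0.0127), a call that was lost with quantile normalization (adjusted p = 0.108). The part of these genes' shift in the differences of the NRF2 pathway was not tested.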

How the data were processed

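RNA of 5 MC38.T4 and 5 MC38 libraries was measured by polyA-selected, strand-specific sequencing, per the labels' protocols. The authors deposited 1 table of FPKM values, with 1 column per library and a symbol per gene. GRCm39 and DESeq2 are named in the submitters' processing notes with no role; for the aligner, counting program, annotation and filters the sources used here name nothing. FPKM holds no read counts, so no counting interval is given and count tests were not run. Columns were matched to samples by library name, and 0 columns were left unused. The 11110 genes that reached an FPKM of 1 in 5 or more libraries were tested with limma 3.58.1 in R 4.3.3 on log2(FPKM + 1), a scale that understates changes of low genes. The model had a group term only, trended and robust moderation, and Benjamini-Hochberg adjustment over all tested genes at 0.05. Ratios were tested by exact permutation with adjustment over 3 ratios. Tables and figures used Python 3.11.15 with pandas 2.3.3, NumPy 2.4.6 and matplotlib 3.10.9.

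The members and lists were chosen with earlier results of these data known. Named genes are the 10 members; from each list at most 2 rises and 2 falls with the largest differences among called genes with a mean FPKM of at least 5; tested markers with a mean of at least 5; and the 3 genes most like Nfe2l2 and Nqo1. Genes whose symbols start with Gm and a digit or end in Rik were left out when likeness was ranked. Other named genes are marked where they appear. All 143 list symbols were found. Results were recomputed with a smaller pseudocount (0.1), with a filter of FPKM 5 and with none, after TPM, quantile or median scaling, with plain eBayes or array weights, with a replicate block, without single libraries, with an exact rank-sum test and with limma's treat against a fold of 1.5.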

Additional observations from a re-analysis of the deposited data

Results flagged for a closer look

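In groups of 5 libraries, a value was singled out where its gap to the nearest library exceeded 0.71 of the whole range. Of 82 groups examined 7 had such a value, where chance gives about 1 in 20. Among the 10 members it was Keap1 in MC38.T4 replicate 4, at 23.9 FPKM, below the 26.9 to 27.5 FPKM of the other MC38.T4 libraries and above all MC38 libraries. The same library held 201 FPKM of Slc3a2, above the 161 to 172 FPKM of the rest of its line. MC38.T4 replicate 1 held 472 FPKM of Sod1, above the 449.9 to 454 FPKM of the rest of its line. MC38 replicate 1 had the lowest Btrc of its line (11.5 FPKM) and the highest Abcc4 (16.9 FPKM). MC38 replicate 2 had the highest Idh2 of its line (23.2 FPKM) and the highest Blvrb (25.9 FPKM). The cause of these deviations was not tested.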

How the results depend on the processing

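Over 22 alternatives each, the 10 members kept their direction in all 220 values and their call in 215; the 5 lost calls were those of Nfe2l2, Gclc, Gclm and Prdx1 against a fold of 1.5 and of Prdx1 with quantile normalization. Among 28 named genes of the lists and markers, 11 of 616 calls were lost, 4 of them of Cspg4 (adjusted p from 0.00274 to 1), and none changed direction. Direction could not change with another filter, plain eBayes, the replicate block, the rank-sum test or treat, which leave each log2 difference as it was. Nor could leaving out libraries reverse a member whose lines did not overlap. Limma's treat asks for a change beyond 1.5-fold, so its counts are lower by construction. It called 3 members higher and 2 lower, and 3474 of the 11110 tested genes in either direction. It called 1 regulator higher and 3 lower, 1 glutathione gene higher and 1 lower, and 3 thioredoxin genes higher and 4 lower. It called 3 conjugation genes higher and 1 lower, and 2 heme and ferritin genes higher and 1 lower. Of the NADPH supply list it called 8 genes higher and 0 lower. It called 0 superoxide and catalase genes in either direction (0 at an unadjusted p under 0.05), where the exact rank-sum test called 3 higher and 1 lower. With no filter 11 conjugation genes were called higher and 6 lower, since more genes were tested. In that setting 12725 of 26597 genes were called in either direction.

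Replicate numbers do not pair the samples: same-numbered libraries correlated between -0.13 and 0.14 in their deviations, and none of 5 MC38.T4 libraries correlated best with its own number. With the number as a block, 9534 genes were called and every member kept its call. Under an exact paired sign-flip test with the replicate block, the log2 differences of the ratios (0.87 for Gclm over Gclc, 1.06 for Keap1 over Nfe2l2 and -0.14 for Srxn1 over Prdx1) had an adjusted p of 0.0625, the smallest that 5 pairs allow. For Gclm over Gclc and Keap1 over Nfe2l2 the unadjusted p of this test was fixed by the separation of their genes between the lines. Leaving out 1 library at a time, the Srxn1 over Prdx1 difference ranged from -0.17 to -0.11, and without both libraries that stand apart it was -0.13 (adjusted p = 0.0571). Read depth limits what can be said of genes below the filter.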
